A study of Mus musculus with 20 samples.

Results

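Elastic fibres are a core of crosslinked elastin in a sheath of microfibrils, and the genes described here encode the core and 9 proteins that build, coat or anchor the fibre: Eln, Fbn1, Fbln1, Fbln2, Fbln5, Efemp1, Mfap4, Mfap5, Ltbp2 and Emilin1. They were chosen by name as a functional group, with earlier results of these data known. All 10 were among the 23284 genes measured in each heart, and all 10 passed the filter on low values that left 12589 genes.

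Elastin is secreted as the soluble monomer tropoelastin, which is laid on fibrillin microfibrils with the help of fibulins and is then joined covalently by lysyl oxidases. Microfibrils also hold latent TGF-beta complexes near the cell surface. In the heart these fibres lie in vessel walls, valves, epicardium and the interstitium, and fibroblasts and smooth muscle cells are their main known sources.

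The data are messenger RNA levels in 20 heart samples of C57BL/6 mice, 2 hearts in each of 10 groups. The sample titles say heart and do not name the parts taken. Controls were Wnt5a floxed, and CKO mice were Wnt5a floxed with Myh6-Cre/Esr 1, a tamoxifen-dependent Cre recombinase driven by a promoter of heart muscle cells. The product of Wnt5a is a secreted ligand of the Wnt family. By its title the study is about that ligand and YAP, a co-activator of TEAD transcription factors, in how myocytes sense load and in the passage to heart failure. Hearts of each genotype were taken with no operation at the end of tamoxifen treatment, and 2 or 4 weeks after a sham operation or TAC (transverse aortic constriction, a narrowing of the aorta that loads the left ventricle). All mice carried the floxed alleles, and the Cre transgene was in CKO mice only, so deletion of Wnt5a and presence of the transgene cannot be told apart. Since Cre is aimed at muscle cells, Wnt5a in other cells of the heart is not its known target. Age and sex are not given in the sources used here. The labels give each heart its own number, by which it is named here, and do not say that the hearts came from separate litters or sessions, so that the p-values measure the spread between these samples only.

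Values are FPKM, which divides the fragments of a gene by its transcript length and by the total of that library, a level per length that can be set side by side between genes. Differences are on the scale of log2(FPKM + 0.5), with the standard error (SE) of 1 linear model over all 20 hearts in limma. A gene is called higher or lower where its Benjamini-Hochberg (BH) adjusted p over the 12589 genes was under 0.05. Where members are counted at an unadjusted p under 0.05, the share of all genes under it was not counted. The added 0.5 makes the differences of low genes smaller than their FPKM ratios. The ratios of mean FPKM, given as folds, have no added constant.

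Wnt5a, the targeted gene, was lower in both CKO hearts than in both controls at each of the 5 stages. The groups were furthest apart in 4-week sham hearts (2.14 and 2.02 FPKM in CKO, 3.87 and 4.11 FPKM in control). In TAC hearts, where Wnt5a was lower in both genotypes, CKO hearts had 1.46 and 1.04 against 1.76 and 1.58 FPKM in controls at 2 weeks. At 4 weeks these were 1.57 and 0.853 against 2.06 and 1.68 FPKM. It was read in every CKO heart. Esr1, part of which is in the transgene, was at most 0.465 FPKM in controls and at least 197 FPKM in CKO hearts. The 8 cardiac muscle markers were present in every heart. In 5 hearts Myl7, a myosin light chain of atrial muscle, was 32.2 to 372 FPKM, while the other 15 hearts had at most 1.66 FPKM: hearts 11 (control TAC, 2 weeks), 16 (control sham, 2 weeks), 14 (CKO sham, 2 weeks), and 21 and 24 (both CKO hearts of the end of tamoxifen). Counts or calls below are also given without these 5 hearts where they change, in a comparison added after the values were seen. It leaves only heart 32 in control TAC, heart 12 in control sham and heart 15 in CKO sham at 2 weeks. The spread used for those groups then comes from other groups only. Relative depth, read from the steps between the lowest values, was 0.877 to 1.21, and absolute depth is not known. In whole tissue, fewer cells of a type and less RNA per cell cannot be told apart.

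In the mouse build GRCm38 (mm10) with GENCODE M21, Eln is on the minus strand at chr5:134702593-134747323, Mfap4 on the plus strand at chr11:61485431-61488900, Mfap5 on the plus strand at chr6:122505845-122529290, and Ltbp2 on the minus strand at chr12:84783212-84876532. Fbn1 spans chr2:125300594-125507993 on the minus strand and Efemp1 chr11:28853204-28926743 on the plus strand. Whether the counting used strand is not given. Mfap4 overlaps Mapk7 on the other strand, at most 4.99 FPKM in any heart, and Ltbp2 overlaps D030025P21Rik, at most 0.112 FPKM. Eln and Fbn1 overlap Gm30003 and Gm9913, which have no row in the tables.

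Promoter sequence is shown for 4 members with unlike responses to TAC, from 250 bases before to 50 after the start of transcription (RefSeq, GRCm38.p6). The table used holds 7 of the 10 members, with 9 promoters. Efemp1, the member that fell, is set beside Ltbp2, which rose most in controls at 2 weeks, and beside Fbln2 and Emilin1, the pair of members whose group means ran closest together. Capitals mark matches, on either strand, of 4 motifs searched: the GC box, the AP-1 site, the TATA box and the core site of the TEAD factors, through which YAP acts. The windows are chr11:28852955-28853254 on the plus strand for Efemp1, chr12:84876442-84876741 on the minus strand for Ltbp2, chr6:91212514-91212813 on the plus strand for Fbln2 and chr5:30913536-30913835 on the plus strand for Emilin1.
Efemp1: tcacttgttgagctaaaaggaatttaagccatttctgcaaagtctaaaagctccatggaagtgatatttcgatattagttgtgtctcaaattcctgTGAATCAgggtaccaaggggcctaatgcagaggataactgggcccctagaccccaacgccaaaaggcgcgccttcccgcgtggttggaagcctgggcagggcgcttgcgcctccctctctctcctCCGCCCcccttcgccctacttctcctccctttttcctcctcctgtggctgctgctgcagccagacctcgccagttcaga
Ltbp2: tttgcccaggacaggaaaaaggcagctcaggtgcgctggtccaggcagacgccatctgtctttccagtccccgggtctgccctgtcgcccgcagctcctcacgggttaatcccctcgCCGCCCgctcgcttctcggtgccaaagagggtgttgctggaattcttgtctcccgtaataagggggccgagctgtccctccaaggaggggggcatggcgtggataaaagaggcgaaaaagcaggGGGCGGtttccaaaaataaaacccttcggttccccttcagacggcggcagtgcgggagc
Fbln2: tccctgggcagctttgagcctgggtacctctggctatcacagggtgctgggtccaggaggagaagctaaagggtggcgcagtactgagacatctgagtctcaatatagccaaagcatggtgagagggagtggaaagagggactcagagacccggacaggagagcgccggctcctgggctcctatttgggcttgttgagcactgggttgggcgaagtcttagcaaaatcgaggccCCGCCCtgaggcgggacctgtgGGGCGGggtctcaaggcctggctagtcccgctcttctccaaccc
Emilin1: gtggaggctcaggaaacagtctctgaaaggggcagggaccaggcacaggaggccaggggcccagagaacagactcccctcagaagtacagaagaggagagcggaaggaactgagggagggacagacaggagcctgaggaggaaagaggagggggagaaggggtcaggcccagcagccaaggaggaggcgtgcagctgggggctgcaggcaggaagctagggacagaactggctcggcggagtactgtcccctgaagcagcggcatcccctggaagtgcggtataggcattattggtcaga

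The GC box, GGGCGG, was in 6 of the 9 promoters of these 7 members (Fbln1 and Fbln5 have 2 each, with a match in 1), in none of Emilin1, and in 35.7% of 32851 mouse promoters of the same length. In Ltbp2 it lies 133 and 9 bases before the start. The AP-1 site, TGANTCA, occurred in 1 promoter, that of Efemp1, as TGAATCA at 154 bases before the start, and in 7.81% of all promoters. None of these 7 members had the TATA box, TATAAA, which 13.6% of promoters hold, or the TEAD core, GGAATG, which 14.7% hold. Eln, Mfap4 and Mfap5 are not among the 7 and were not searched. These matches describe the letters of the windows only.

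In the 12 hearts without TAC, levels were low to moderate. Fbln2, a fibulin that links elastin to other matrix, was the most abundant by median at 24.9 FPKM (19.95 to 33.4), followed by Fbln1, another fibulin of matrix and basement membrane, at 22.1 FPKM (17.7 to 27.0). Mfap5, a small glycoprotein on microfibrils, had a median of 19.1 FPKM, Mfap4, a fibrinogen-related protein that binds elastin and microfibrils, 13.5 FPKM, and Eln 12.7 FPKM. Ltbp2, a latent TGF-beta binding protein that binds fibrillin but not TGF-beta itself, was the lowest at 0.42 FPKM (0.155 to 0.83). Fbn1 and Emilin1, at medians of 11.4 and 11.2 FPKM, came after Eln, and Fbln5 and Efemp1, at 5.19 and 4.91 FPKM, before Ltbp2. Neighbours in this order overlapped in range, except Emilin1 with Fbln5 and Efemp1 with Ltbp2.

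**Figure D1:**
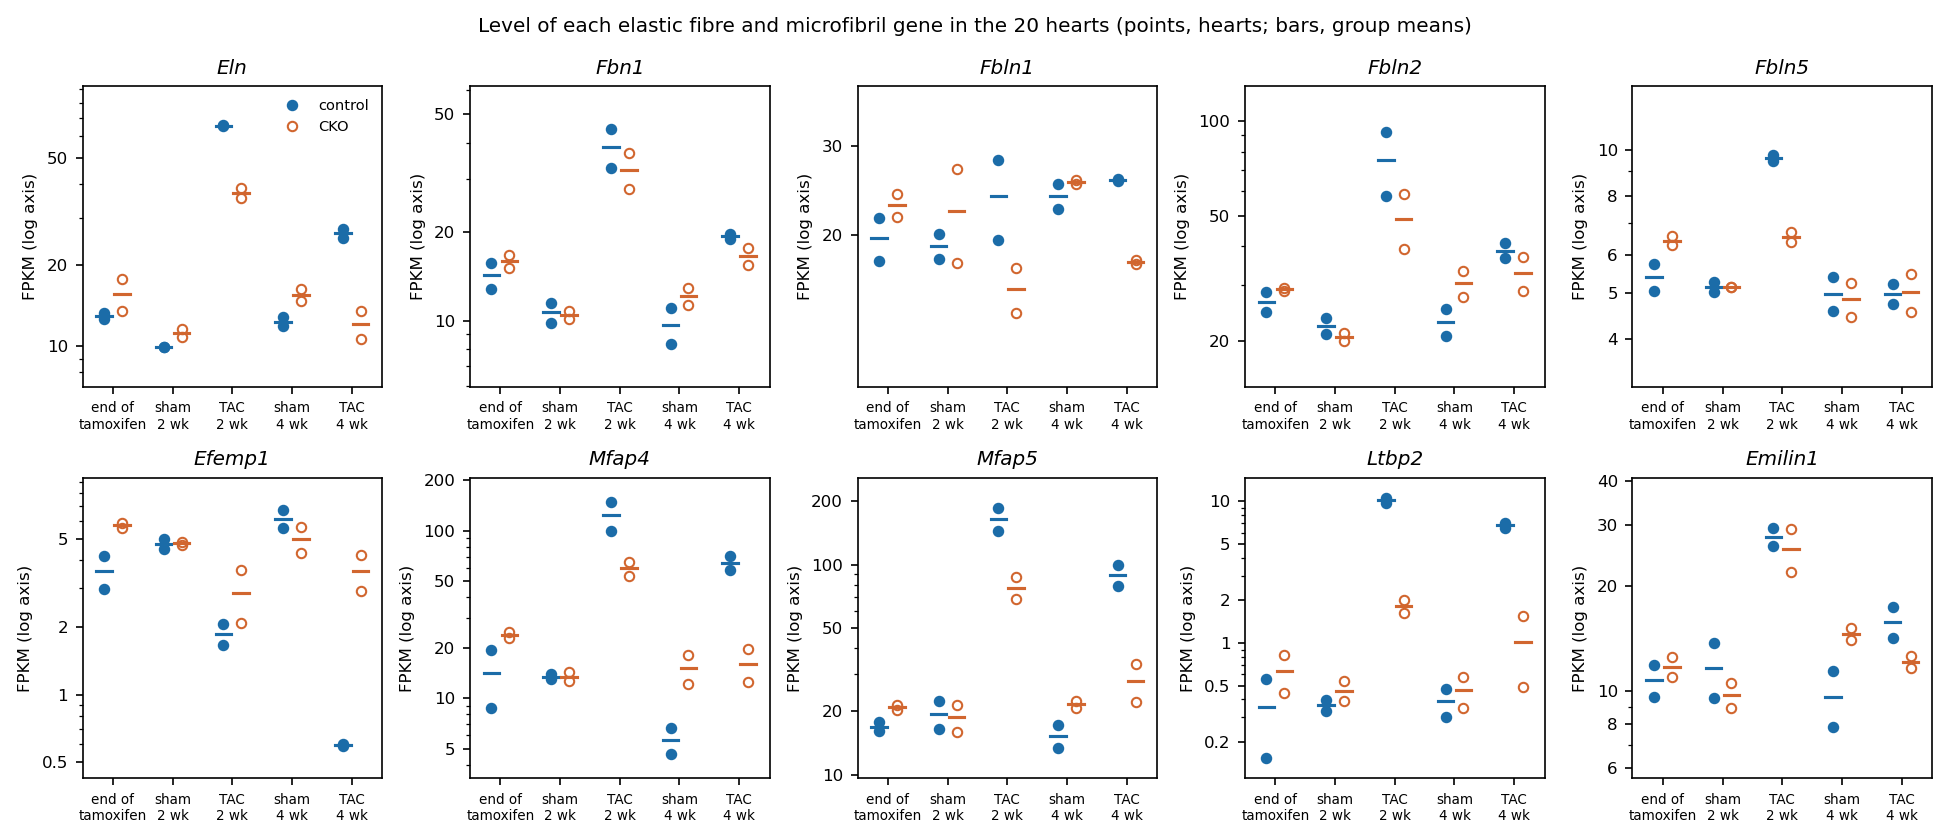
FPKM of the 10 genes (log axis, FPKM) in each of the 20 hearts by stage, control as filled and CKO as open points, with bars at the group means of 2 hearts. Eln, Ltbp2, Mfap4 and Mfap5 were highest in control TAC hearts at 2 weeks, and Efemp1 was lowest in control TAC hearts at 4 weeks, at 0.59 and 0.599 FPKM.

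Pressure load in control hearts raised most of these genes within 2 weeks. Of the 10 genes, 8 rose, Efemp1 fell and Fbln1 did not pass, where 11.0% of all 12589 genes rose and 12.8% fell (23.8% either way). The median difference of the 10 was 1.74, and that of all genes -0.00. Without the hearts with high Myl7, only heart 32 after TAC and heart 12 after sham were left here. The call of Efemp1 then ended, at a difference of -1.09.

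Eln was 65.7 and 65.8 FPKM in control TAC hearts at 2 weeks, against 9.91 and 9.98 FPKM after sham, a 6.61-fold rise (2.67 ± 0.13 SE on the log2 scale, limma adjusted p = 1.0e-07). The hearts of each group were nearly equal, and the groups lay far apart. Ltbp2 was 9.78 and 10.6 FPKM after TAC against 0.329 and 0.397 FPKM after sham (3.63 ± 0.31, adjusted p = 6.4e-06), so that a gene barely read in sham hearts came to the level of Eln in sham hearts. Mfap4 was 149 and 100.03 FPKM against 13.9 and 13.0 FPKM (3.13 ± 0.32, adjusted p = 2.2e-05). Mfap5 was 144 and 186 FPKM against 22.4 and 16.5 FPKM (3.06 ± 0.22, adjusted p = 1.6e-06) and was the most abundant of the 10 in heart 32, as Mfap4 was in heart 11. The scaffold and coat genes moved less than these. Fbn1, which encodes fibrillin-1, the main microfibril protein, rose 3.62-fold to 32.7 and 44.4 FPKM (adjusted p = 1.6e-05). Fbln2 rose 3.37-fold, Emilin1, an elastin-binding glycoprotein of the fibre surface, 2.38-fold, and Fbln5, which bridges tropoelastin to integrins, 1.87-fold. Fbln1 stood at 28.1 and 19.6 FPKM against 20.1 and 17.96 FPKM in sham hearts, and these groups overlapped (0.30 ± 0.19, adjusted p = 0.28).

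Efemp1, or fibulin-3, which binds elastin and has roles in elastic tissue of fascia and eye, went the other way. It was 1.66 and 2.08 FPKM after TAC against 5.0 and 4.51 FPKM after sham (-1.15 ± 0.22, adjusted p = 0.0022). Neither TAC heart reached a sham heart.

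At 4 weeks, 7 of the 10 genes were still higher with TAC in controls and Efemp1 lower, where 6.36% of all genes rose and 6.37% fell. The median difference of the 10 was 0.86. Eln was 25.2 and 27.2 FPKM against 12.8 and 11.9 FPKM, 2.12-fold (1.06 ± 0.13, adjusted p = 0.00023). Mfap4 was 70.3 and 58.0 FPKM against 6.65 and 4.65 FPKM (3.41 ± 0.32, adjusted p = 3.1e-05), and its sham hearts here were the lowest of the 12 hearts without TAC, which enters its fold of 11.4. Mfap5 (99.6 and 79.1 FPKM against 17.1 and 13.4 FPKM) and Ltbp2 (6.55 and 7.1 FPKM against 0.301 and 0.475 FPKM) also kept a wide gap, of 5.84-fold and 17.6-fold. Fbn1 rose 1.99-fold to 18.9 and 19.6 FPKM (adjusted p = 0.0032).

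The smaller rises at 4 weeks rested on single hearts. Fbln2 (0.75 ± 0.21, adjusted p = 0.036) lost its call without any 1 of hearts 1, 2, 6 and 7, with an adjusted p of up to 0.21. Emilin1 (0.70 ± 0.20, adjusted p = 0.035) lost it without heart 1, 2 or 7, with an adjusted p of up to 0.27, and without the hearts with high Myl7 (0.052). None of the hearts with high Myl7 is in these groups, so the difference of Emilin1 was unchanged without them. Only the shared spread and the degrees of freedom changed. In a fit of only these 2 groups, Fbn1, Fbln2 and Emilin1 did not pass, which left 5 of 10. Fbln5 was at the sham level, 4.72 and 5.22 FPKM against 5.38 and 4.57 FPKM (0.00 ± 0.12), and Fbln1 was at 25.9 and 25.6 FPKM against 22.5 and 25.2 FPKM.

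Efemp1 had by then its lowest values of the series, 0.599 and 0.59 FPKM against 5.6 and 6.72 FPKM after sham (-2.60 ± 0.22, adjusted p = 2.7e-05). That is a sham level 10.4-fold that of TAC hearts.

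In CKO hearts the genes rose at 2 weeks as well. Of the 10, 7 rose and Efemp1 fell, where 10% of all genes rose and 9.21% fell (19.3% either way), and the median of the 10 was 1.31. Eln was 38.7 and 35.3 FPKM after TAC against 10.8 and 11.5 FPKM after sham, 3.31-fold (1.68 ± 0.13, adjusted p = 1.4e-05). Mfap4 was 65.3 and 53.9 FPKM against 14.3 and 12.6 FPKM (2.11 ± 0.32, adjusted p = 0.001), and Mfap5 68.3 and 87.3 FPKM against 16.0 and 21.5 FPKM (2.03 ± 0.22, adjusted p = 0.00014). Fbn1 rose 3.1-fold and Emilin1 2.63-fold, with 27.9 and 36.8 FPKM for Fbn1 and 21.9 and 29.1 FPKM for Emilin1 after TAC. Fbln2, at 39.1 and 58.7 FPKM, rose 2.38-fold (adjusted p = 0.0026).

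Ltbp2 reached 1.64 and 2.03 FPKM after TAC in CKO hearts, against 0.536 and 0.387 FPKM after sham (1.28 ± 0.31, adjusted p = 0.013). Efemp1 was 2.09 and 3.61 FPKM against 4.83 and 4.7 FPKM (-0.69 ± 0.22, adjusted p = 0.044). The call of Efemp1 rested on each of hearts 13, 14 and 15 (largest adjusted p on leaving 1 out = 0.31), that of Ltbp2 on hearts 15 and 31 (0.12) and that of Fbln2 on heart 31 (0.051). Fbln1 (-0.48 ± 0.19, adjusted p = 0.09) and Fbln5 (0.32 ± 0.12, adjusted p = 0.075) were not called. Without the hearts with high Myl7, only heart 15 was left after sham. The calls of Efemp1 and Ltbp2 then ended, at differences of -0.67 and 1.39. A fit of only these 2 groups called 2 of 10, Eln and Mfap4.

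At 4 weeks none of the 10 passed in CKO hearts, where 33 of 12589 genes, or 0.262%, did. At an unadjusted p under 0.05 in limma there were 3, Eln, Fbln1 and Fbn1. Eln was 10.6 and 13.5 FPKM after TAC and 14.7 and 16.4 FPKM after sham (-0.36 ± 0.13, adjusted p = 0.25), so both TAC hearts lay under both sham hearts. Mfap4 was 19.5 and 12.5 FPKM against 12.2 and 18.1 FPKM, with overlap (0.07 ± 0.32). Mfap5 was 33.6 and 22.3 FPKM against 22.3 and 20.9 FPKM (0.34 ± 0.22), and Ltbp2 1.55 and 0.489 FPKM against 0.347 and 0.578 FPKM (0.58 ± 0.31). In each of these 3 genes heart 3 was the higher of the CKO hearts with TAC. Fbn1 was 17.6 and 15.4 FPKM against 11.3 and 12.9 FPKM, without overlap (0.43 ± 0.17, adjusted p = 0.32). Fbln1 differed by -0.51 ± 0.19, Efemp1 by -0.44 ± 0.22, Emilin1 by -0.26 ± 0.20, Fbln2 by 0.10 ± 0.21 and Fbln5 by 0.04 ± 0.12.

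**Figure D2:**
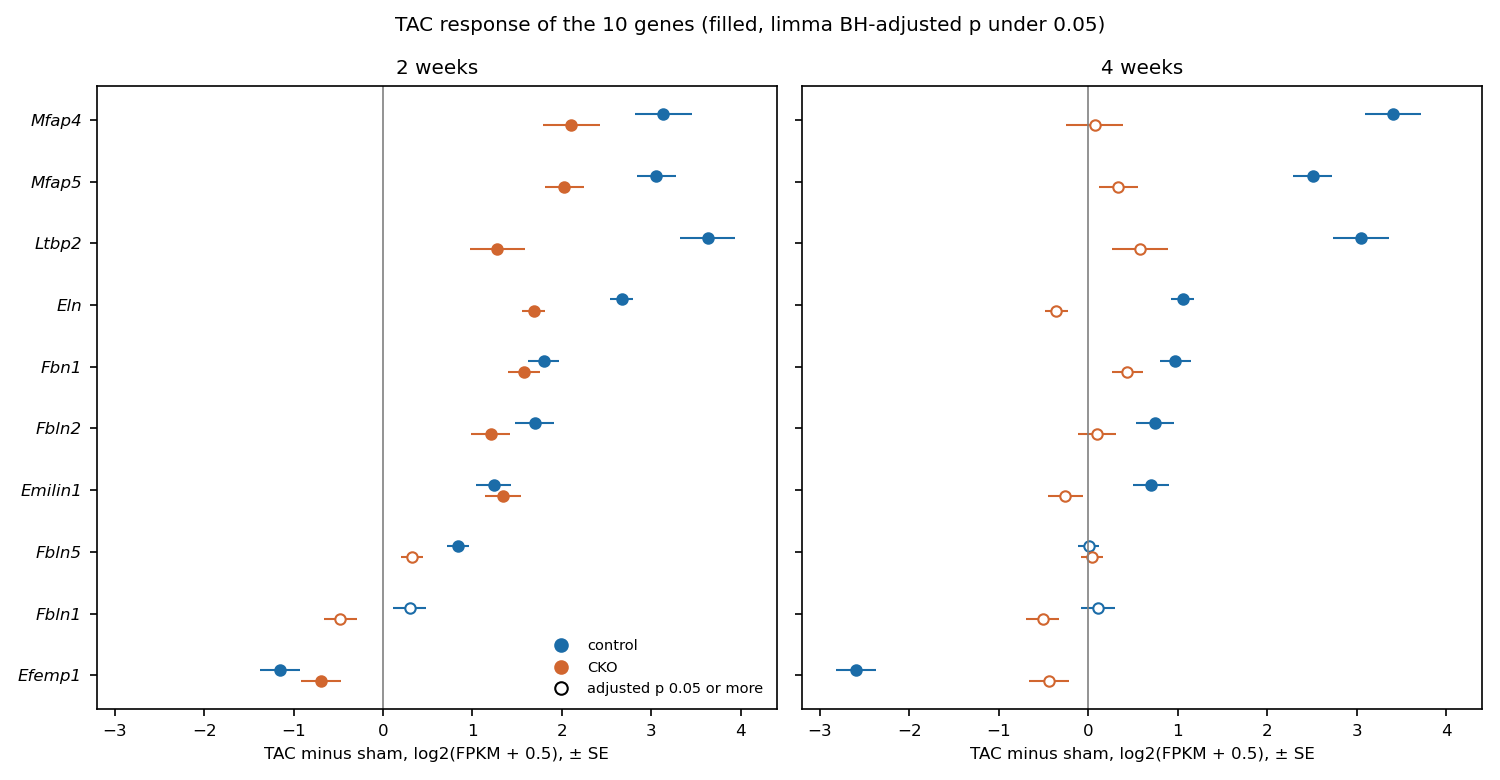
Difference between TAC and sham hearts in log2(FPKM + 0.5) ± SE (horizontal axis) for each gene at 2 weeks (left) and 4 weeks (right), 2 hearts per group, with filled points for adjusted p under 0.05. At 4 weeks the control points of Mfap4, Mfap5 and Ltbp2 sit at 3.41, 2.51 and 3.05 and the CKO points of all 10 genes between -0.51 and 0.58.

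Whether the TAC response differed between genotypes was tested directly. At 4 weeks, 4 of the 10 genes had a lower response in CKO hearts and 1 a higher one, where 0.54% of all genes were lower and 0.207% higher. These were Mfap4 (-3.34 ± 0.45, adjusted p = 0.007), Ltbp2 (-2.47 ± 0.44, adjusted p = 0.021), Mfap5 (-2.17 ± 0.31, adjusted p = 0.0079) and Eln (-1.41 ± 0.18, adjusted p = 0.007), and, in the other direction, Efemp1 (2.16 ± 0.31, adjusted p = 0.008). For Efemp1 the higher value is a smaller fall with TAC. Its TAC difference was -0.44 ± 0.22 in CKO hearts, not called, and -2.60 ± 0.22 in control hearts. The median over the 10 genes was -0.80 and over all genes 0.01. Emilin1 (-0.96 ± 0.28, adjusted p = 0.17), Fbln2 (-0.65 ± 0.30), Fbln1 (-0.62 ± 0.26) and Fbn1 (-0.54 ± 0.25) had lower values that did not pass, and Fbln5 was 0.04 ± 0.17.

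The call of Ltbp2 ended on leaving out any 1 of hearts 1, 2, 6, 7, 8 and 41 (largest adjusted p = 0.089) and with a pseudocount of 0.1 (-3.01, adjusted p = 0.07). In the fit without the hearts with high Myl7, Efemp1 and Ltbp2 lost their calls at unchanged differences (2.16 and -2.47). None of those hearts is a 4-week heart, so only the shared spread and the degrees of freedom changed. A fit of only the 4 groups called 0 of 12589 genes, with adjusted p of 0.091 to 0.17 for the 5 genes.

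At 2 weeks the same test called none of the 10 genes and 0.0159% of all. Their unadjusted p was under 0.05 in limma for 6 of 10, with no share of all genes to set beside it. Eln differed by -0.98 ± 0.18 and Ltbp2 by -2.35 ± 0.44, each with an adjusted p of 0.11. The other 4 were Mfap5 (-1.03 ± 0.31), Fbln5 (-0.52 ± 0.17), Fbln1 (-0.77 ± 0.26) and Mfap4 (-1.03 ± 0.45). Fbn1 (-0.22 ± 0.25), Fbln2 (-0.49 ± 0.30), Efemp1 (0.46 ± 0.31) and Emilin1 (0.10 ± 0.28) were within about 2 SE of 0. Ltbp2 passed with a pseudocount of 1 (adjusted p = 0.042) and in a fit of only the 4 groups (0.047).

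Levels in the TAC hearts themselves show where the genotypes parted. At 2 weeks Eln (-0.82 ± 0.13, adjusted p = 0.017) and Ltbp2 (-2.20 ± 0.31, adjusted p = 0.015) were lower in CKO than in control TAC hearts, 2 of 10 genes against 0.413% of all. Control levels were 1.78-fold those of CKO for Eln and 5.54-fold for Ltbp2. Leaving out heart 31 or 32 ended both calls (largest adjusted p = 0.14), as did leaving out the hearts of high Myl7 (0.073 for Eln and 0.077 for Ltbp2) and a fit of only these 2 groups. The call of Ltbp2 also ended with a pseudocount of 0.1 (0.057). Mfap5 (-1.08 ± 0.22, adjusted p = 0.051) stood at the threshold. Mfap4 (-1.03 ± 0.32), Fbln2 (-0.61 ± 0.21), Fbln1 (-0.58 ± 0.19), Fbln5 (-0.52 ± 0.12), Fbn1 (-0.25 ± 0.17), Emilin1 (-0.13 ± 0.20) and Efemp1 (0.47 ± 0.22) did not pass. In 6 genes both CKO hearts lay under both control hearts, where 18.3% of all genes did.

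At 4 weeks Eln (-1.09 ± 0.13, adjusted p = 0.0013), Ltbp2 (-2.36 ± 0.31, adjusted p = 0.0026), Mfap5 (-1.68 ± 0.22, adjusted p = 0.0024) and Mfap4 (-2.00 ± 0.32, adjusted p = 0.0084) were lower in CKO than in control TAC hearts. Efemp1 was higher, at 2.92 and 4.24 FPKM in CKO against 0.599 and 0.59 FPKM in control hearts, 6.02-fold (1.88 ± 0.22, adjusted p = 0.0013). These 5 of 10 genes compare with 0.834% of all genes, 0.604% lower and 0.23% higher. Control levels were 6.68-fold those of CKO for Ltbp2, 4.0-fold for Mfap4, 3.2-fold for Mfap5 and 2.17-fold for Eln. The call of Mfap4 ended on leaving out heart 1 or 41 (largest adjusted p = 0.12) or the hearts of high Myl7 (0.057), that of Mfap5 on leaving out heart 1 (0.051), and a fit of only these 2 groups called none of the 10 and 2 genes in all. None of the hearts of high Myl7 is a 4-week heart, so the difference of Mfap4 was unchanged without them. Only the shared spread and the degrees of freedom changed. In 7 genes both CKO hearts lay under both control hearts, where 20.8% of all genes did. Among them was Fbln1, with 17.9 and 17.6 FPKM against 25.9 and 25.6 FPKM (-0.52 ± 0.19, adjusted p = 0.27). Emilin1 (-0.36 ± 0.20), Fbln2 (-0.24 ± 0.21), Fbn1 (-0.22 ± 0.17) and Fbln5 (0.00 ± 0.12) did not pass either.

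Without TAC none of the 10 genes passed between genotypes. At the end of tamoxifen, where 0.0159% of all genes passed, every one of the 10 means was higher in CKO hearts. The share of all genes with a higher mean was not counted. In 7 of the 10 genes both CKO hearts lay above both controls, where 16.9% of all genes did. The differences were 0.13 to 0.84, highest for Mfap4 (24.9 and 22.9 FPKM against 8.8 and 19.5 FPKM, adjusted p = 1). At an unadjusted p under 0.05 in limma there were 2, Efemp1 (0.62 ± 0.22) and Mfap4. Below these came Ltbp2 (0.43), Mfap5 (0.30), Eln (0.26), Fbln5 (0.23), Fbln1 (0.22), Fbn1 (0.16), Fbln2 (0.13) and Emilin1 (0.13). Beside them, all 8 fibroblast and all 6 tested macrophage markers had higher means in CKO hearts (medians 0.13 and 0.26), all 5 tested atrial and all 3 tested adipocyte markers did too (medians 4.06 and 0.97), and all 8 cardiac muscle markers had lower ones (median -0.19), none of them called. Both CKO hearts of this stage are among those with high Myl7, so no value without them could be had, and the part of these other cells in the differences was not tested.

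In sham hearts, the mean over 2 and 4 weeks called none of the 10 and 0.00794% of all genes. Eln (0.24 ± 0.09) and Mfap4 (0.67 ± 0.22) were under 0.05 in limma before adjustment only. The other 8 ran from -0.14 ± 0.16 (Efemp1) to 0.22 ± 0.15 (Mfap5), with Emilin1 at 0.18, Fbln2 at 0.15, Fbn1 at 0.14, Fbln1 at 0.14, Ltbp2 at 0.13 and Fbln5 at -0.02. The excess of CKO hearts was in the 4-week shams, where 7 genes were without overlap and higher in CKO, against 17.1% of all genes, while at 2 weeks 1 gene, Eln, was, against 14.6%. Mfap4 in 4-week sham hearts was 12.2 and 18.1 FPKM in CKO and 6.65 and 4.65 FPKM in controls, a difference of 1.34. For Mfap4, Mfap5 and Eln, the lower TAC response at 4 weeks is made in part of lower sham levels in controls. For Mfap4, -3.34 is made of -2.00 in TAC hearts and 1.34 in sham hearts. For Mfap5, -2.17 is made of -1.68 and 0.49, and for Eln, -1.41 of -1.09 and 0.32. For Ltbp2, -2.47 is made of -2.36 and 0.11, and its sham hearts overlapped. For Efemp1 sham levels were the other way, 5.6 and 6.72 FPKM in controls and a mean of 4.99 FPKM in CKO hearts (-0.28). The response and level comparisons share the same hearts and are not separate evidence.

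**Figure D3:**
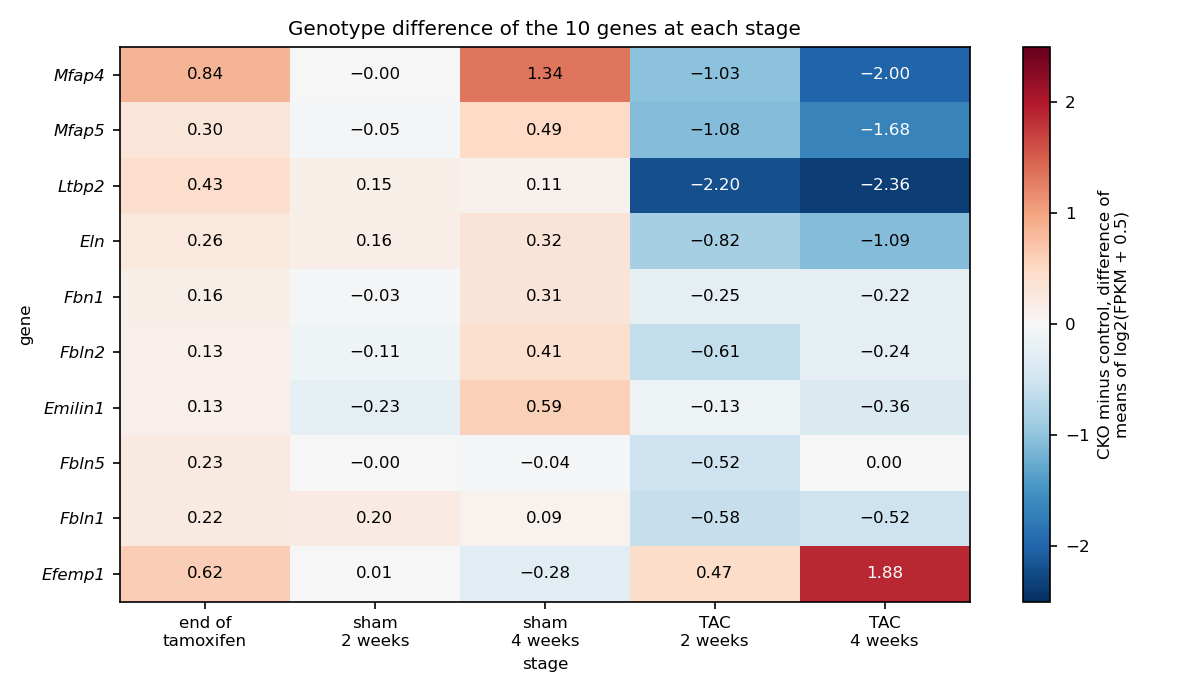
Difference of group means between CKO and control hearts in log2(FPKM + 0.5) (colour and number) for each gene (rows) at each stage (columns), 2 hearts per group. In TAC hearts at 4 weeks Ltbp2, Mfap4, Mfap5 and Eln are at -2.36, -2.00, -1.68 and -1.09 and Efemp1 is at 1.88.

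Taken over both genotypes and times, Fbn1 was lower in sham hearts than at the end of tamoxifen by 0.48 ± 0.11 SE on the log2 scale (adjusted p = 0.029). This was 1 of 10 genes against 3.36% of all (1.48% lower). The operation and the time of collection differ together here and cannot be told apart. Both CKO hearts of the end of tamoxifen have high Myl7, so no value without them could be had. Fbn1 was 12.8 to 16.7 FPKM in the 4 hearts of the end of tamoxifen and 8.36 to 12.9 FPKM in the 8 sham hearts. Leaving out any 1 of hearts 7, 14, 21, 22, 23 and 24 ended the call (largest adjusted p = 0.13). Mfap4 (-0.65), Eln (-0.22), Fbln2 (-0.22), Fbln5 (-0.21), Ltbp2 (-0.08), Mfap5 (-0.02), Emilin1 (-0.01), Fbln1 (0.08) and Efemp1 (0.16) did not pass. All 8 fibroblast markers had lower values in the sham hearts too and 5 were called lower (median -0.45), as was 1 of 5 pericyte markers; their part in the result for Fbn1 was not tested.

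The change of the TAC response with time was tested in each genotype. In controls the response of Eln was lower at 4 than at 2 weeks (-1.61 ± 0.18, adjusted p = 0.0055), and Eln was the 1 gene of 12589 that passed this test (0.00794%). Leaving out heart 12 or 32 ended that call (largest adjusted p = 0.051), as did leaving out the hearts of high Myl7 (-1.62, adjusted p = 0.098). The TAC responses of Fbn1 (-0.82 ± 0.25), Fbln2 (-0.95 ± 0.30) and Fbln5 (-0.84 ± 0.17) also had lower values at 4 weeks without passing. So did those of Ltbp2 (-0.58 ± 0.44), Mfap5 (-0.55 ± 0.31), Emilin1 (-0.53 ± 0.28) and Fbln1 (-0.19 ± 0.26), while that of Mfap4 differed by 0.27 ± 0.45. For Efemp1 the response was a fall that was larger at 4 weeks, -1.15 at 2 and -2.60 at 4 weeks (-1.45 ± 0.31), without passing. No marker of the fibroblast, smooth muscle, pericyte or endothelial lists was called here, but Eln was the only gene called at all. All 8 fibroblast markers (median -0.73) and all 7 of smooth muscle (median -1.17) had values under 0. So did 4 of 5 pericyte (median -0.55) and 4 of 6 endothelial markers (median -0.18). All 8 cardiac muscle markers had values above 0 (median 0.48). The part of these cells in the result for Eln was not tested.

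In CKO hearts 6 of the 10 responses were lower at 4 than at 2 weeks and none was higher, where 3.83% of all genes were lower and 2.71% higher (6.54% either way). They were those of Eln (-2.04 ± 0.18, adjusted p = 3.0e-04), Mfap4 (-2.03 ± 0.45, adjusted p = 0.022), Mfap5 (-1.69 ± 0.31, adjusted p = 0.012), Emilin1 (-1.59 ± 0.28, adjusted p = 0.011), Fbn1 (-1.14 ± 0.25, adjusted p = 0.021) and Fbln2 (-1.10 ± 0.30, adjusted p = 0.045). Ltbp2 (-0.70 ± 0.44), Fbln5 (-0.28 ± 0.17), Fbln1 (-0.03 ± 0.26) and Efemp1 (0.25 ± 0.31) did not pass. In the same comparison 5 of 8 fibroblast markers were called lower (median -1.09), as were 2 of 6 of activated fibroblasts, 3 of 6 endothelial and 1 of 5 pericyte markers, and their part in the result was not tested. Leaving out single CKO hearts left 1 to 6 of them: Fbn1 and Mfap4 fell out without heart 8, 15, 31 or 41, Emilin1 without heart 15 or 31, Mfap5 without heart 31, and Fbln2 without any 1 of hearts 3, 4, 8, 14, 15, 31 and 41. Without the hearts with high Myl7 there were 2, Eln and Emilin1, and a fit of only the 4 groups left 1, Eln.

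Whether this change with time differed between genotypes was not called for any of the 10 genes or of the 12589 (0%). At an unadjusted p under 0.05 in limma there were 5 of the 10, with no share of all genes to set beside it. The largest values were for Mfap4 (-2.31 ± 0.63) and Efemp1 (1.70 ± 0.44), and the other 3 were Mfap5 (-1.15 ± 0.44), Emilin1 (-1.06 ± 0.40) and Fbln5 (0.56 ± 0.24). Eln was at -0.43 ± 0.26, Fbn1 at -0.32 ± 0.35, Fbln2 at -0.15 ± 0.43, Ltbp2 at -0.13 ± 0.62 and Fbln1 at 0.16 ± 0.37.

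Over the 10 groups, Eln was highest in control TAC hearts at 2 weeks (65.8 ± 0.0957 FPKM, mean ± SD, n = 2), followed by CKO TAC at 2 weeks (37.0 ± 2.38) and control TAC at 4 weeks (26.2 ± 1.43), 3 groups that did not overlap each other or the rest. CKO TAC hearts at 4 weeks (12.1 ± 2.07) lay among the groups without TAC, which ran from 9.94 ± 0.0501 in control sham hearts at 2 weeks to 15.7 ± 2.99 FPKM in the CKO group taken as tamoxifen ended. Neighbours in that lower range overlapped, except control hearts at the end of tamoxifen with CKO sham hearts at 4 weeks, and the sham hearts of both genotypes at 2 weeks.

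The genes with group means most like those of Eln were sought among 11598 genes above a mean of 1 FPKM, by the root mean square of the difference between the 2 genes' group means over the 10 groups, each gene centred on its own mean on the log2 scale. They were C1qtnf6 (0.159), Aspn (0.161), Col16a1 (0.179), Fn1, which encodes fibronectin (0.183), and Fstl1 (0.203). The nearest member was Fbn1, at 0.328. Among the members, Fbln2 and Emilin1 were closest (0.171), then Fbn1 and Fbln2 (0.187), while Mfap5 and Ltbp2 were 0.363 apart. Efemp1 was far from every other member, the nearest being Fbln1 at 0.81.

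**Figure D4:**
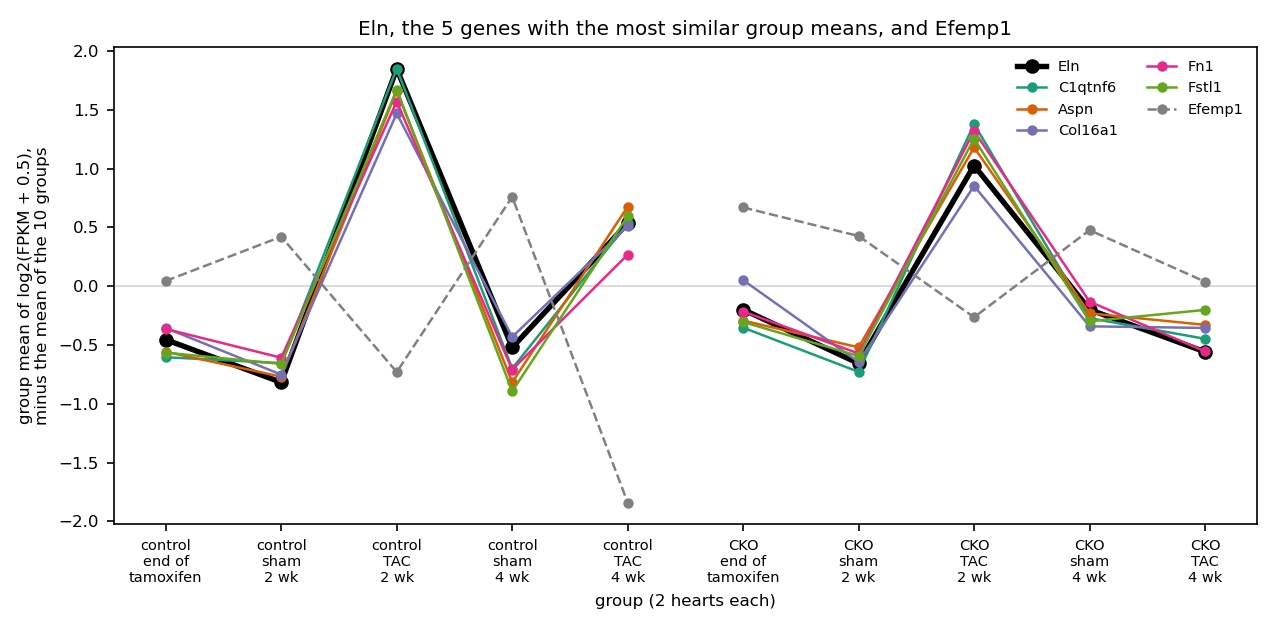
Group means of log2(FPKM + 0.5), each gene minus its mean over the 10 groups (vertical axis), for Eln, the 5 genes most like it and Efemp1 across the groups (horizontal axis, 2 hearts each); lines join groups for the eye only. The 5 genes stay within a root mean square of 0.159 to 0.203 of Eln. Efemp1 is lowest in control TAC hearts at 4 weeks, while Eln is highest in control TAC hearts at 2 weeks.

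Genes that finish, cut or bind the fibre were described from lists. In control hearts at 2 weeks, 8 of 12 tested genes of crosslinking and microfibril assembly rose and none fell (median 0.84). Among them were Lox, the enzyme that crosslinks tropoelastin (2.86 ± 0.33, adjusted p = 6.4e-05), Adamtsl2, a microfibril-binding protein (2.52 ± 0.27), Loxl2 (1.85 ± 0.22) and Loxl1, which acts on elastin (1.73 ± 0.15). Of 10 other fibre and microfibril components 5 rose, such as the latent TGF-beta binding protein genes Ltbp3 (1.10 ± 0.13) and Ltbp4 (1.11 ± 0.18) and the proteoglycan gene Vcan (1.59 ± 0.26), and Emilin2 fell (-0.81 ± 0.17). Of 4 elastin-degrading proteases 2 rose, Ctsk (1.87 ± 0.18) and Mmp2 (1.71 ± 0.16). Of 9 receptor genes 5 rose, all integrin subunits, by 0.47 to 1.07, and all 3 TGF-beta ligand genes rose, by 0.99 to 1.78.

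At 4 weeks in controls 5 of the 12 crosslinking and assembly genes rose and 1, Furin, fell, with Adamtsl2 at 1.88 ± 0.27 and Lox at 1.65 ± 0.33. Of the other components 2 of 10 rose and 2 fell. In CKO hearts at 2 weeks 6 of 12 crosslinking and assembly genes rose, with Loxl2 at 1.70 ± 0.22 and Adamtsl2 at 1.77 ± 0.27, as did 6 of 10 other components, 2 of 4 proteases, 2 of 9 receptors and all 3 ligands. In CKO hearts at 4 weeks none of the genes of these lists passed.

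The difference of the TAC response between genotypes at 4 weeks was called for 2 genes of these lists, Tgfb3 (-1.25 ± 0.18, adjusted p = 0.0079) and Mmp2 (-1.07 ± 0.23, adjusted p = 0.047). Between TAC hearts at 4 weeks, Tgfb3 (-1.03 ± 0.12), Ctsk (-1.15 ± 0.18) and Loxl3 (-1.31 ± 0.27) were lower in CKO. In CKO hearts the response was lower at 4 than at 2 weeks for 8 genes of these lists, with the smallest p for Tgfb3 (-1.15 ± 0.18), Ltbp3 (-1.07 ± 0.19) and Loxl1 (-1.23 ± 0.22).

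Cell markers that moved in the same comparisons are given beside these genes. Of 6 genes of activated fibroblasts, among them Acta2, which smooth muscle also expresses, 5 rose in controls at 2 weeks, 4 at 4 weeks, 4 in CKO hearts at 2 weeks and none at 4 weeks. Their summed level was 545 to 623 FPKM in control TAC hearts at 2 weeks and 291 to 382 FPKM in CKO TAC hearts at 2 weeks. At 4 weeks it was 261 to 281 FPKM in control and 147 to 162 FPKM in CKO TAC hearts, and in sham hearts 63.5 to 277 FPKM. Much of this sum is Acta2, with a median of 89.0 FPKM over all hearts against 0.291 to 23.0 FPKM for the other genes. Postn, which encodes periostin, was 358 and 413 FPKM in control TAC hearts at 2 weeks and 128 and 119 FPKM at 4 weeks, against 44.6 and 23.5 FPKM in CKO TAC hearts at 4 weeks. In control sham hearts at 4 weeks, where the sum was 112 to 277 FPKM, Postn was 15.2 and 10.9 FPKM. The response difference at 4 weeks was called for 3 of the 6, Postn (-2.65 ± 0.33), Cilp (-3.57 ± 0.54) and Meox1 (-1.94 ± 0.37).

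Of 8 general fibroblast genes 6 rose in controls at 2 weeks, 2 rose and 1 fell at 4 weeks, 6 rose and 1 fell in CKO hearts at 2 weeks and none was called at 4 weeks. None of the 8 had a called response difference at 4 weeks, where Pdgfra was at -0.35 ± 0.17 and Tcf21 at -0.70 ± 0.38. Their summed level was 653 to 711 FPKM in control and 738 to 813 FPKM in CKO TAC hearts at 4 weeks, but most of it is Gsn, with a median of 634 FPKM over all hearts against 5.95 to 78.1 FPKM for the other 7 genes. Between these hearts 6 of the 8 genes had lower means in CKO (median -0.11), Gsn was at 0.43, and none was called. Of 7 smooth muscle genes 3 rose in controls at 2 weeks, 1 fell in controls at 4 weeks and none was called in CKO hearts, where all 7 had values under 0 at 4 weeks (median -0.53). Their sum was 80.8 to 108 FPKM in control TAC hearts at 2 weeks and 59.3 to 72.7 FPKM in the sham hearts beside them. No marker of these 3 lists was at 0 in any heart except Cthrc1 in 1 heart, and their part in the results for the 10 genes was not tested.

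Nppa, a natriuretic peptide gene that muscle cells raise under load, was 9118 and 10098 FPKM in control TAC hearts at 2 weeks and 1489 and 1278 FPKM in CKO TAC hearts. At 4 weeks it was 3547 and 2761 FPKM in control and 1041 and 454 FPKM in CKO TAC hearts. The labels give no measure of the load each heart was under, so a difference in constriction between groups cannot be told apart from genotype, and its part was not tested.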

How the data were processed

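Messenger RNA was measured in 20 hearts (TruSeq Stranded mRNA libraries of miRNeasy total RNA, per the labels' protocols). Per the submitters' processing notes, the tools were TopHat2 2.1.1, Bowtie2 and Cuffdiff 2.2.1 with build mm10; the deposited values are FPKM by the authors, 1 table per heart. Fragment counts, and whether counting used strand, are not given in the sources used here. Genes whose mean was 0.5 FPKM or more were kept, and log2(FPKM + 0.5) was fitted in limma 3.58.1 (R 4.3.3) with 10 group means, a trended prior and 14 contrasts, BH-adjusted over 12589 genes. Residual degrees of freedom were 10, the median prior 3.81. The fit was tested on simulated data.

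The 10 genes, the lists of related genes and markers and the tests were chosen with earlier results of these data known. All 10 genes are named in every comparison, up to 4 genes of a list with the smallest p among those that passed, and the 5 genes most like Eln; Furin, the other genes with a count of 1, and the cell markers were named after their values were seen. Relative depth came from steps of the lowest values, of which 96.2% lay within 5% of whole multiples. Alternatives were pseudocounts of 0.1 and 1, no filter or one at 3 FPKM, median-ratio scaling, quantile normalization, a prior without trend, only the groups compared, and each heart left out; fits without hearts with Myl7 of 10 FPKM or more were added after the data were seen. Figures used Python 3.11.15 and matplotlib 3.10.9.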

Additional observations from a re-analysis of the deposited data

Results flagged for a closer look

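Effects that differed between genotypes or between times, by a limma test of the difference itself, are listed here. The TAC response at 4 weeks, CKO minus control, was -1.41 for Eln, -3.34 for Mfap4, -2.17 for Mfap5, -2.47 for Ltbp2 and 2.16 for Efemp1, with adjusted p of 0.007 to 0.021. The TAC response at 4 weeks minus that at 2 weeks was -1.61 for Eln in controls (adjusted p = 0.0055). In CKO hearts it was -2.04 for Eln, -1.14 for Fbn1, -1.10 for Fbln2, -2.03 for Mfap4, -1.69 for Mfap5 and -1.59 for Emilin1, with adjusted p of 3.0e-04 to 0.045. These comparisons share TAC and sham hearts with each other, and groups of 2 hearts are too small for a check of single outlying hearts.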

How the results depend on the processing

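With 2 hearts in a group the spread comes from all 10 groups, and a fit without 1 heart assumes that its lone partner varies like the rest. No paired analysis was possible because each heart number occurs once in the labels. Depth is not given, so intervals from counting cannot be set beside low levels such as those of Ltbp2. Over the settings other than leaving out 1 heart, 1164 values of the 10 genes kept their direction and side of the threshold, 48 lost it, 5 gained it and 9 changed sign; with each heart left out the same counts were 858, 52, 3 and 47. The cause of the changes below was not tested, except that fewer groups or hearts leave fewer degrees of freedom.

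A fit of only the groups compared called, of the 10 genes, 5 for TAC in controls at 4 weeks, 2 for TAC in CKO hearts at 2 weeks, 1 for the response difference between genotypes at 2 weeks and 0 at 4 weeks, 1 for the change of response with time in CKO hearts, and 0 for genotype in TAC hearts at 2 and at 4 weeks. Of all genes it called 1158, 355, 15 and 4 for TAC (controls at 2 and 4 weeks, CKO at 2 and 4 weeks), 6 and 0 for the response difference at 2 and 4 weeks, 2 and 11 for the change with time in controls and CKO, 2 for the difference in that change, 9 and 2 for genotype in TAC hearts at 2 and 4 weeks, 4 for genotype as tamoxifen ended, 2 for genotype in sham hearts, and 204 for sham against the end of tamoxifen.

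Without the hearts with high Myl7, 3 of the 10 were called for the response difference at 4 weeks, 0 and 2 for the change with time in controls and CKO, and 0 for genotype in TAC hearts at 2 weeks. Of all genes 1119 were called for TAC in controls at 2 weeks, 5 and 29 for the response difference at 2 and 4 weeks, 2 and 229 for the change with time in controls and CKO, 7 for the difference in that change, 33 and 63 for genotype in TAC hearts at 2 and 4 weeks, and 5 in sham hearts. At 2 weeks this fit leaves only heart 32 in control TAC, heart 12 in control sham and heart 15 in CKO sham. None of the hearts with high Myl7 is a 4-week heart, so differences between 4-week groups stayed the same. Their calls moved only with the shared spread and the degrees of freedom. Values that changed sign, none of them called, were Fbln1 for TAC in controls at 2 weeks (-0.038), the control change with time (0.15), the difference in that change (-0.48) and genotype in sham hearts (-0.046), and Fbn1 (0.051) and Fbln2 (0.055) for the difference in that change.

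For genotype in TAC hearts at 2 weeks, 1 of the 10 was called with a pseudocount of 0.1 (Ltbp2 lost), 1 with a filter at 3 FPKM, which does not test Ltbp2, and 4 with quantile normalization; of all genes 96 were called with a pseudocount of 1, 98 with no filter and 110 with quantile normalization. For the response difference at 2 weeks, a pseudocount of 1 called 1 of the 10, and all genes called were 4 and 6 with pseudocounts of 0.1 and 1, 6 with no filter, 5 with a filter at 3 FPKM, 5 with quantile normalization and 1 with a prior without trend. With no filter 11 genes were called for TAC in CKO hearts at 4 weeks, 3 for the control change with time, 3 for the difference in that change, 5 for genotype as tamoxifen ended and 3 for it in sham hearts; quantile normalization called 2 for the control change with time. Signs changed with quantile normalization for Fbln5 for TAC in controls at 4 weeks (-0.00027) and Ltbp2 for the difference in time change (0.20), and there with a pseudocount of 1 (0.0020). Near the threshold, Fbln2 (0.058) and Emilin1 (0.055) for TAC in controls at 4 weeks, Efemp1 for TAC in CKO hearts at 2 weeks (0.069) and Fbln2 for the CKO change with time (0.07) were lost with no filter.

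With each heart left out in turn, the count of the 10 genes ran from 0 to 1 for the control and 1 to 6 for the CKO change with time, 0 to 3 and 3 to 5 for genotype in TAC hearts at 2 and 4 weeks, and 0 to 1 for sham against the end of tamoxifen. The count of all genes ran from 1618 to 2303, 660 to 1053, 465 to 2208 and 0 to 88 for TAC (controls at 2 and 4 weeks, CKO at 2 and 4 weeks), 1 to 5 and 20 to 121 for the response difference at 2 and 4 weeks, 0 to 9 and 55 to 1113 for the change with time in controls and CKO, 0 to 4 for the difference in that change, 5 to 119 and 19 to 176 for genotype in TAC hearts, 3 to 7 for genotype as tamoxifen ended, 1 to 8 for genotype in sham hearts and 70 to 540 for sham against the end of tamoxifen.

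Signs that changed with 1 heart left out were all of values not called. For TAC at 4 weeks these were Fbln5 in controls (-0.11 to 0.11) and, in CKO hearts, Fbln2 (-0.075 to 0.27), Fbln5 (-0.078 to 0.16) and Mfap4 (-0.24 to 0.38). For the response difference they were Emilin1 at 2 weeks (-0.15 to 0.35) and Fbln5 at 4 weeks (-0.080 to 0.16). For the change with time they were Fbln1 (-0.44 to 0.066) and Mfap4 (-0.011 to 0.56) in controls, Fbln1 (-0.33 to 0.27) and Efemp1 (-0.081 to 0.59) in CKO hearts, and, for the difference, Fbln1 (-0.14 to 0.46), Fbln2 (-0.49 to 0.18) and Ltbp2 (-0.65 to 0.40). For genotype they were Emilin1 in TAC hearts at 2 weeks (-0.33 to 0.074), Fbln5 at 4 weeks (-0.12 to 0.12), Emilin1 as tamoxifen ended (-0.013 to 0.27), and in sham hearts Fbln1 (-0.0057 to 0.29) and Fbln5 (-0.073 to 0.037). For sham against the end of tamoxifen they were Mfap5 (-0.076 to 0.032), Ltbp2 (-0.25 to 0.094) and Emilin1 (-0.078 to 0.064).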

Other observations

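Markers of the other cells of the heart were counted in the same comparisons. Of 5 pericyte genes 3 rose and Abcc9 fell at 2 weeks after TAC in both genotypes, with Pdgfrb at 0.90 ± 0.15 in control and 0.76 ± 0.15 in CKO hearts; at 4 weeks 1 rose and 1 fell in controls and none passed in CKO hearts. Of 6 endothelial genes 1 rose in control and 3 in CKO hearts at 2 weeks, and none at 4 weeks. Of 6 tested macrophage genes none passed in controls and 3 rose in CKO hearts at 2 weeks, and at 4 weeks 1 rose in controls and none in CKO hearts. Of 8 cardiac muscle genes 4 fell in control and 5 in CKO hearts at 2 weeks, 2 rose in controls at 4 weeks and none passed in CKO hearts. Of 3 tested adipocyte genes 1 rose and 2 fell in CKO hearts at 2 weeks and none passed in the other TAC comparisons. Of 2 tested epicardial genes, Wt1 rose in controls at 2 weeks (0.80 ± 0.23). Of 5 tested atrial genes 1, Nppa, rose and 1 fell in each TAC comparison except CKO hearts at 4 weeks, where none passed. Differences between genotypes in these lists were not tested as lists.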
